A study of Homo sapiens with 2 samples.

Results

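The EEF2 transcript was examined for A-to-G mismatches in the presence and absence of a small molecule. EEF2 lies on the minus strand of chromosome 19, and every listed minus-strand position from 3976054 to 3985461 of the hg19 build was taken, 684 of 4736485 positions listed in all. The gene was selected on measured values, the G reads at one of its positions, 3980934, and the A-to-G rate of its chromosome, both compared between the same libraries. The difference in A-to-G between them is therefore given as a description, with no test. The nearest listed positions outside the range were 6321 nt below and 59043 nt above it, so that no listed neighbour adjoins the gene on that strand.

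EEF2 encodes eukaryotic elongation factor 2, the GTPase that moves the ribosome along the mRNA by a codon after each peptide bond. Its mRNA is among the abundant messages of growing cells and belongs to the TOP mRNAs, whose translation follows mTOR signalling. ADAR enzymes deaminate adenosine to inosine in base-paired RNA, and inosine is read as G by reverse transcriptase. They are known to favour an adenosine that follows U or A and precedes G. On the transcript an edited base therefore appears as an A position with G reads. A-to-C and A-to-T reads at the same positions serve as a background that ADAR does not make. They do not measure how many A-to-G reads arise without ADAR.

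Messenger RNA came from HEK-293T, a human embryonic kidney line, carrying the CIRTS-hADAR biosensor, an engineered RNA-binding system joined to a human ADAR. ABA, abscisic acid, is a plant hormone that is used in cells to bring protein parts together. One library was made without ABA and one with it, both from cells with the biosensor, and no library without the biosensor was analysed here. The labels give no dose or time for ABA. With 1 library per condition no difference has a replicate check. Each interval printed is a 95% interval for counting error only, and is too narrow as far as 1 read covers several positions.

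EEF2 was deeply read in both libraries. Of the 684 positions, 682 were listed in both. Position 3985427 was listed only without ABA and position 3983018 only under ABA, at 7 reads each. Depth ran from 7 to 227 reads without ABA, with a median of 106, and from 6 to 224 under ABA, with a median of 114. The median of nuclear positions listed in both libraries was 12 and 11 reads, where nuclear means chromosomes 1 to 22 and X. At least 20 reads in both libraries were reached by 675 EEF2 positions, and at least 50 by 641. EEF2 held 1841 base reads per 1000000 nuclear base reads without ABA and 1979 under ABA, with a ratio of 1.08 (1.06 to 1.09). The 2 libraries held 51092343 and 45277712 base reads in all.

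EEF2 mRNA carried more A-to-G reads in the ABA library. Without ABA, 109 of 75677 reads were G, a rate of 0.144% (0.118 to 0.174). With ABA, 293 of 79220 reads were G, a rate of 0.370% (0.329 to 0.415). The ratio was 2.57 (2.05 to 3.23), and the difference was 0.226 percentage points. No EEF2 position reached a G share of 35% in either library, the level from which a position was treated as a possible inherited variant, so none was left out.

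The other changes at the same adenosines were rarer than A-to-G in both libraries. A-to-C stood at 0.0238% (0.0141 to 0.0376) without ABA and 0.0253% (0.0155 to 0.0391) under ABA, from 18 and 20 reads. A-to-T stood at 0.0198% (0.0111 to 0.0327) without ABA and 0.00760% (0.00279 to 0.0165) under ABA, from 15 and 6 reads. The A-to-C ratio of 1.06 (0.534 to 2.13) and the A-to-T ratio of 0.383 (0.122 to 1.04) both have intervals that hold 1. Of all changed reads at EEF2 adenosines, G made up 76.8% without ABA and 91.8% under ABA. No EEF2 position had more than 1 A-to-C or more than 1 A-to-T read in a library, whereas a single position had up to 3 G reads without ABA and up to 12 under ABA.

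Rates of mismatch were higher at deeper positions across the nuclear transcripts, so EEF2 was also set beside positions under shared lower limits of depth. Such a limit does not make the depths equal. All other nuclear positions listed in both libraries together had 0.0408% (0.0402 to 0.0414) of G reads in the library without ABA and 0.0788% (0.0779 to 0.0797) in the other. Over the 28154 of them with at least 50 reads in both libraries it was 0.127% (0.123 to 0.132) without ABA and 0.234% (0.228 to 0.240) under ABA, with a ratio of 1.84 (1.76 to 1.92). EEF2 positions at that depth had 0.144% (0.118 to 0.174) and 0.374% (0.332 to 0.419), with a ratio of 2.60 (2.08 to 3.28). Without ABA the EEF2 interval thus overlapped the nuclear one, and under ABA it lay above it. The 1996 other chromosome 19 positions of that depth had 0.130% (0.113 to 0.149) and 0.308% (0.282 to 0.335), with a ratio of 2.37 (2.01 to 2.79), and their interval under ABA overlapped slightly that of EEF2. At 100 or more reads EEF2 stood at 0.167% and 0.425%, and the other nuclear positions at 0.166% and 0.292%. A-to-C at 50 or more reads was 0.0231% and 0.0258% in EEF2 against 0.0223% and 0.0238% in the other nuclear positions. These comparisons follow from how the gene was chosen and carry no test.

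**Figure D1:**
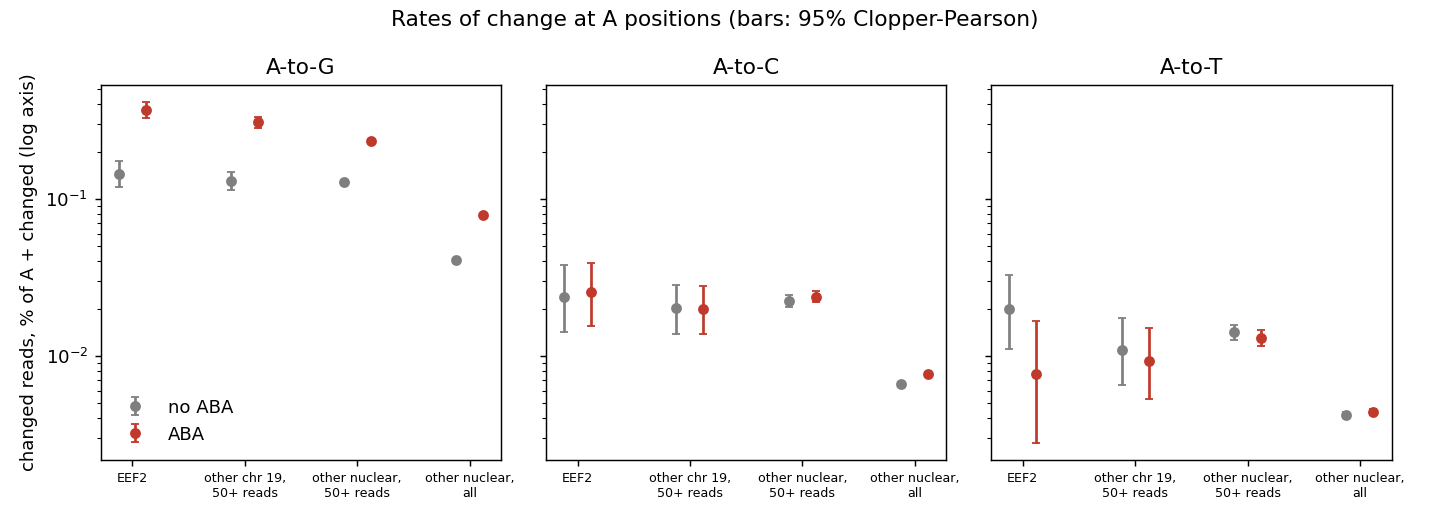
Rates of A-to-G, A-to-C and A-to-T at A positions, in percent of A plus changed reads on a log axis, for EEF2 and 3 sets of other positions, without ABA (grey) and under ABA (red), with 95% Clopper-Pearson intervals. EEF2 A-to-G stands at 0.144% and 0.370%, while its A-to-C values of 0.0238% and 0.0253% lie side by side.

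The listed positions of EEF2 fell into 14 exon-like blocks, runs of at least 5 positions that each had 20 or more reads in both libraries, with no gap over 50 nt. The blocks held 672 positions over 2987 nt and were numbered from the 5' end of the transcript. Gaps between them ran from 86 to 1157 nt and held almost no listed positions. No gene model of the hg19 build was used here, so blocks are not called exons and no position is placed in coding sequence or a UTR. Mean depth per block lay between 88.7 and 176 reads.

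The A-to-G rate was higher under ABA in 14 of 14 blocks. The same held for 28.4% of the 17384 other nuclear blocks built in this way. It held for 71.3% of the 894 of them with at least 2000 base reads in each library, a total that each EEF2 block reached. These 894 blocks were chosen by total reads and not by depth per position, and the part of depth in their values was not tested. Across the EEF2 blocks the rate without ABA ran from 0.0290% to 0.224%, with a median of 0.140%. With ABA it ran from 0.212% to 0.604%, with a median of 0.353%. The lowest block under ABA thus lay below the highest block without ABA, so the ranges overlapped slightly. Rates at least 2 times as high under ABA were found in 12 of the 14 blocks, against 42.2% of the 894 other blocks. The median of those other blocks was 0.0777% without ABA and 0.129% under ABA. Since the gene was chosen for this contrast, nothing is read from these shares.

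**Figure D2:**
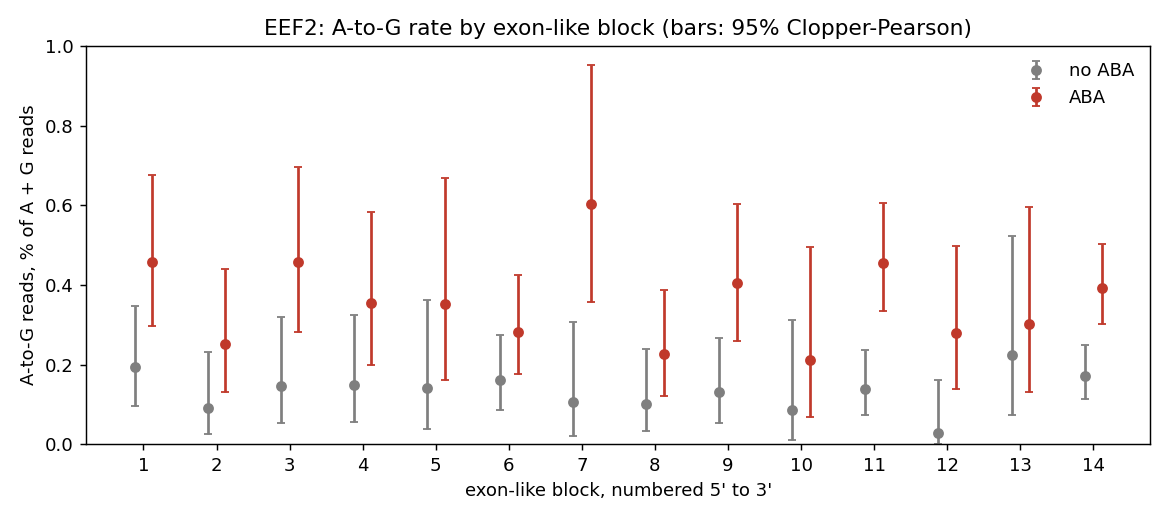
A-to-G rate in percent of A plus G reads for the 14 exon-like blocks of EEF2, numbered 5' to 3', without ABA (grey) and under ABA (red). Bars are 95% Clopper-Pearson intervals. The red point is above the grey one in every block, and the ratio's interval lies above 1 in 7 blocks.

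Block 7, from 3980842 to 3980971, had the highest rate under ABA. It held 3 G reads of 2859 without ABA, 0.105% (0.0216 to 0.306), and 18 of 2981 under ABA, 0.604% (0.358 to 0.953), with a ratio of 5.75 (1.68 to 30.5). Of those 18 reads, 12 came from position 3980934, and without that position the block's ratio was 1.91. Block 12, from 3977427 to 3977603, had the largest ratio, 9.61 (1.40 to 414), from the lowest rate without ABA. It held 1 G read of 3452 and then 11 of 3952, over 8 positions under ABA, so the size of its ratio is set by a single read.

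The 2 longest blocks held the most reads. Block 11, from 3977818 to 3978170, had 13 of 9367 G reads without ABA, 0.139% (0.0739 to 0.237), and 47 of 10308 under ABA, 0.456% (0.335 to 0.606). Block 14, the last block of the transcript, from 3976062 to 3976740, had 27 of 15760 G reads without ABA, 0.171% (0.113 to 0.249), and 62 of 15760 under ABA, 0.393% (0.302 to 0.504). Their ratios were 3.29 (1.75 to 6.62) and 2.30 (1.44 to 3.75). Block 6, from 3981338 to 3981443, was the deepest per position, with 13 of 8103 and 22 of 7811 G reads, and its ratio of 1.76 (0.846 to 3.79) has an interval that holds 1. Block 1, at the 5' end, from 3984135 to 3984345, had 0.193% (0.0966 to 0.346) and 0.458% (0.297 to 0.676). The smallest ratio was in block 13, from 3977221 to 3977340, with 5 of 2232 and 8 of 2642 G reads, with a ratio of 1.35 (0.390 to 5.25).

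No end of the transcript stood apart. Blocks 1 to 7 together had 0.147% (0.108 to 0.195) without ABA and 0.377% (0.313 to 0.449) under ABA, a ratio of 2.56. Blocks 8 to 14 had 0.138% (0.105 to 0.178) and 0.364% (0.312 to 0.423), a ratio of 2.64. The last block alone had a ratio of 2.30 (1.44 to 3.75), and the 13 blocks before it 2.71 (2.09 to 3.54). With the position of most G reads in the ABA library left out of each block, the rate was still higher under ABA in 14 of 14. The 12 positions outside the blocks held too few reads for a rate: the 10 of them listed in both libraries held 2 of 251 G reads without ABA and 1 of 154 under ABA.

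G reads were found at many EEF2 adenosines, and under ABA a larger share of them lay at a few positions. Of the 675 positions read at least 20 times in each library, 94 showed G in the library without ABA and 179 in the ABA library. The G share was higher under ABA at 156 positions, 23.1%, and lower at 72, 10.7%. Of the other nuclear positions with at least 20 reads in each library, it was higher at 3.25% and lower at 1.85%. At 50 or more reads it was higher at 155 of 641 EEF2 positions, 24.2%, and lower at 71, 11.1%. The other nuclear positions with at least 50 reads in each library had 11.6% higher and 7.10% lower. A shared lower limit does not make the depths equal, and the part of depth in these shares was not tested. Positions with a single G read held 78.5% of the G reads without ABA, 84 of 107, and 45.5% under ABA, 133 of 292. Positions with 3 or more held 8.41% without ABA, 9 reads at 3 positions, and 38.0% under ABA, 111 reads at 22 positions. The 10 positions with 5 or more held 24.7% of the G reads under ABA.

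**Figure D3:**
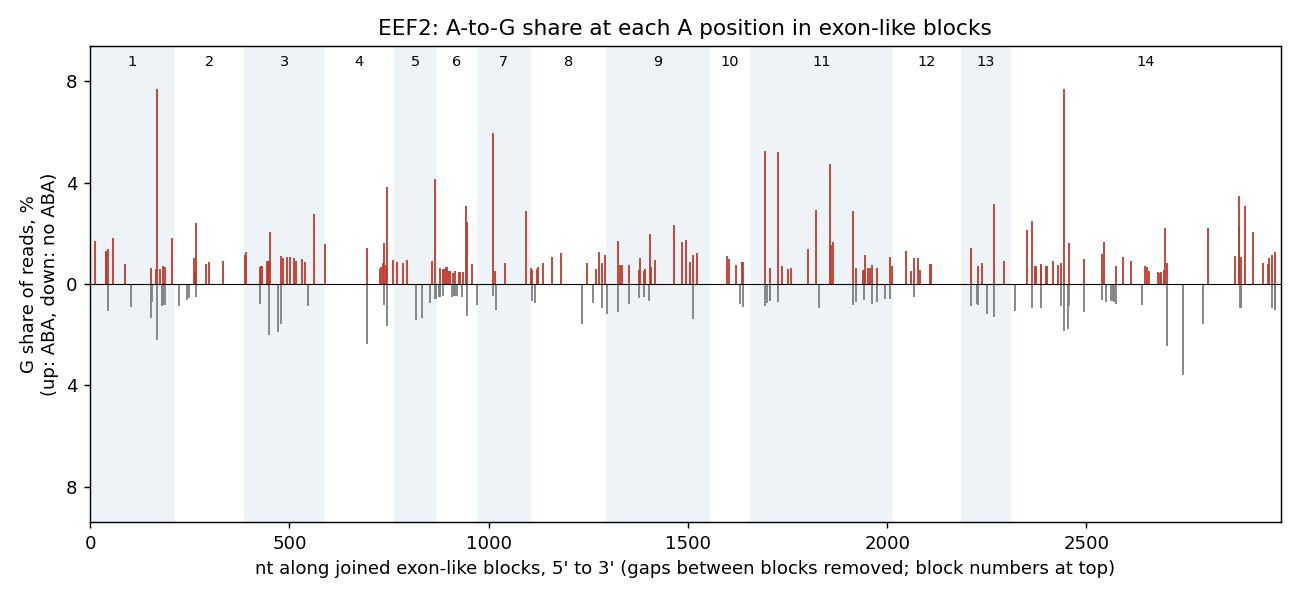
G share of reads in percent at each A position of the 14 exon-like blocks, joined 5' to 3' with the gaps removed, under ABA upward in red and without ABA downward in grey. G reads are spread along the whole length, and the 2 tallest red lines, in blocks 1 and 14, both stand at 7.69%.

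The same adenosines tended to carry G reads in both libraries. Of the 94 positions with a G read without ABA, 45 also had one under ABA, 47.9%. Of the 581 without a G read in the first library, 134 had one under ABA, 23.1%. At 50 or more reads in each library the EEF2 shares were 48.4% and 24.3%, and those of the other nuclear positions 26.5% and 11.1%. Deeper positions are more likely to show a G read in either library, and the part of depth in these shares was not tested.

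Positions with at least 3 G reads were more numerous in the ABA library. Of 675 EEF2 positions of at least 20 reads, 3 met that limit without ABA and 22 under ABA. Of the other nuclear positions of at least 20 reads, 0.0282% and 0.141% met it. At 50 or more reads the EEF2 counts were the same, of 641 positions, against 0.242% and 1.11% of the other nuclear positions. In all, 24 EEF2 positions reached 3 G reads in either library, spread over 11 of the 14 blocks. Of these, 21 met the limit in the ABA library alone, so that a higher share there was nearly fixed by the limit. The share was higher under ABA at 22 of the 24, and 12 had no G read without ABA. Their shares under ABA ran from 0.833% to 7.69%, so that most reads carried A even at the highest.

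Position 3984177 in block 1 had the most G reads over both libraries. It held 3 of 136 reads without ABA, 2.21% (0.457 to 6.31), and 12 of 156 under ABA, 7.69% (4.04 to 13.1). Position 3980934 in block 7, through which the gene was chosen, held 0 of 204 reads without ABA, where a count of 0 allows up to 1.47%, and 12 of 201 under ABA, 5.97% (3.12 to 10.2). Position 3976604 in block 14 held 2 of 107 reads, 1.87% (0.227 to 6.59), and 8 of 104, 7.69% (3.38 to 14.6). At the first and the third of these positions the intervals overlapped between libraries.

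Block 11 held 3 of the next positions. At position 3978103, G was found in 1 of 139 reads without ABA, 0.719% (0.0182 to 3.94), and in 8 of 153 under ABA, 5.23% (2.28 to 10.04). Position 3978134 had 1 of 115 reads, 0.870% (0.0220 to 4.75), and 6 of 114, 5.26% (1.96 to 11.1). Position 3977971 had 0 of 104 reads, which allows up to 2.88%, and 6 of 127, 4.72% (1.75 to 9.999). At each of these positions the intervals overlapped between libraries. These 3 adenosines span 163 nt, and the first and second lie 31 nt apart, so that 1 read may cover both. A further one in that block, 3977915, went from 1 of 119 to 4 of 138 reads.

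The remaining named positions had 5 G reads or fewer in each library, and at each the intervals overlapped between libraries. Position 3981946 in block 5 had 1 of 172 reads, 0.581% (0.0147 to 3.20), and 5 of 120, 4.17% (1.37 to 9.46). Position 3982262 in block 4 had 2 of 120 and 5 of 131, and position 3983230 in block 2 had 0 of 195 and 5 of 208. Positions 3981365 and 3981366 in block 6 are neighbouring adenosines, with 2 of 159 and 4 of 163 reads at the first and 0 of 172 and 5 of 163 at the second. Position 3980850 in block 7 had 0 of 119 and 4 of 138, and position 3976685 in block 14 had 1 of 106 and 3 of 120. Position 3982313 in block 4 was the one named position with the lower share under ABA, 3 of 126 reads without ABA and 2 of 142 under ABA.

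In the ABA library the A-to-G rate of EEF2 adenosines differed with the base on their 3' side. A neighbour was called A where the files list an A there on the transcript strand, and U where they list an A on the opposite strand. A neighbour in neither list is a G, a C or a U whose opposite strand had too few reads to be listed. These calls can be made without a genome sequence, and the U class is incomplete. EEF2 adenosines followed by an A had 0.108% (0.0638 to 0.170) without ABA and 0.169% (0.113 to 0.242) under ABA, over 145 positions. Those followed by a U had 0.0702% (0.0282 to 0.145) and 0.118% (0.0608 to 0.205), over 88 positions. Those followed by neither had 0.168% (0.134 to 0.208) and 0.485% (0.427 to 0.549), over 442 positions, and held 86.0% of the G reads of the ABA library. With ABA the interval of the third class lay above those of the first and second.

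The base on the 5' side went with a difference as well. With ABA the rate was 0.545% (0.440 to 0.667) at the 145 EEF2 adenosines preceded by an A and 0.844% (0.566 to 1.21) at the 30 preceded by a U. It was 0.290% (0.248 to 0.337) at the 500 preceded by neither. Without ABA the 3 rates were 0.169% (0.113 to 0.245), 0.161% (0.0522 to 0.374) and 0.132% (0.104 to 0.166), and their intervals overlapped. Mean depths of the classes under ABA were 118, 115 and 117 reads.

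The rate was then taken by both neighbours together, a split chosen after the values were seen. EEF2 adenosines with A or U before and neither after had 0.194% (0.131 to 0.276) without ABA and 0.713% (0.589 to 0.855) under ABA, with a ratio of 3.68 (2.44 to 5.70). They were 139 of the 675 positions, 20.6%, and held 39.4% of the G reads under ABA. Those 115 G reads lay at 56 of the 139 positions, with 12 at 3984177 and 8 each at 3976604 and 3978103. The intervals assume 1 rate within a class and do not cover such spread between positions. Adenosines with neither before and A or U after had 0.0976% (0.0612 to 0.148) and 0.148% (0.102 to 0.206), with a ratio of 1.51 (0.859 to 2.71). The difference between libraries was 0.519 percentage points in the first class and 0.0500 in the second. The 2 background changes pooled had the same order of these classes at lower rates. In the first they stood at 0.0776% (0.0401 to 0.135) without ABA and 0.0562% (0.0257 to 0.107) under ABA, from 12 and 9 reads, and in the second at 0.0222% (0.00721 to 0.0518) and 0.0261% (0.00957 to 0.0568), from 5 and 6 reads. The part of this background in the A-to-G order was not tested. Adenosines with neither before and neither after, 303 in number, had 0.156% (0.116 to 0.204) and 0.382% (0.321 to 0.452), and held 46.6% of the G reads under ABA. The 36 adenosines with A or U on both sides had 0.0723% (0.0149 to 0.211) and 0.160% (0.0643 to 0.329). Before an A or U the base on the 5' side thus went with no difference beyond the intervals, 0.160% and 0.148% under ABA.

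**Figure D4:**
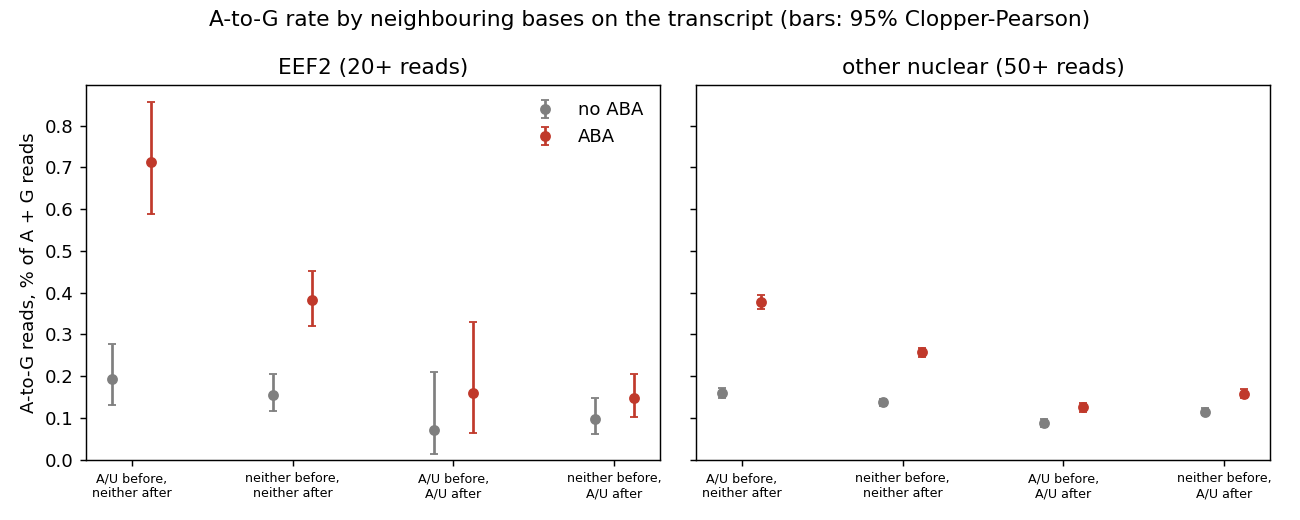
A-to-G rate in percent of A plus G reads by the neighbouring bases on the transcript, for EEF2 positions with at least 20 reads and other nuclear positions of 50 or more reads in both libraries, without ABA (grey) and under ABA (red). Bars are 95% Clopper-Pearson intervals. In EEF2 the red points range from 0.713% with A or U before and neither after to 0.148% with neither before and A or U after.

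These contexts also differed in the rest of the nuclear transcripts. In the other nuclear positions of at least 50 reads, adenosines with A or U before and neither after had 0.160% (0.149 to 0.172) and 0.377% (0.360 to 0.395), a ratio of 2.36. Those with neither before and A or U after had 0.116% (0.107 to 0.125) and 0.158% (0.148 to 0.169), a ratio of 1.37. The first context took a similar share of positions in both, 20.4% against 20.6% in EEF2. With ABA the EEF2 rate in that context, 0.713%, was above the nuclear 0.377%, and their intervals did not overlap. The context is not fully alike in the 2 sets. A U was called after 13.0% of EEF2 adenosines and 6.06% of the nuclear ones, so more uncalled U may lie in the nuclear class. Mean depth in that context under ABA was 116 reads in EEF2 and 81.1 in the nuclear set. The part of either in the difference was not tested. In the second context the EEF2 rate of 0.148% and the nuclear 0.158% had overlapping intervals. The 2 background changes pooled had the same order of these contexts in the nuclear set. Under ABA they stood at 0.0866% (0.0784 to 0.0955) in the first context and 0.0274% (0.0232 to 0.0321) in the second. Without ABA they stood at 0.0760% (0.0682 to 0.0844) and 0.0314% (0.0269 to 0.0365). The part of this background in the nuclear A-to-G order was not tested.

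Within EEF2 the first context had a higher rate than the other positions of the block in 12 of 14 blocks under ABA. Without ABA the same held in 9 of 14. The exceptions under ABA were blocks 7 and 12, which held only 3 and 2 such positions and no G read at them. Among the 12, block 10 had 1 G read at 2 such positions, and block 9 had 0.415% against 0.403%. The matching share of other nuclear blocks is not given here. Block 1 had the highest rate in this context, 1.57% under ABA, from 18 G reads at 12 positions, 12 of them at 3984177. Of the 24 positions with at least 3 G reads, 23 had neither A nor U listed after them, 8 followed an A and 2 followed a U. Among all 675 EEF2 positions of at least 20 reads, 65.5% had neither listed after them, 21.5% followed an A and 4.44% a U. Position 3980934 had neither A nor U listed on either side, and 3981366 was the one position followed by an A.

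Reads on the opposite strand of the EEF2 range were also listed, at 434 plus-strand A positions, which are U in EEF2 mRNA. Over the 416 and 352 of them listed in each library, mean depth was 11.8% of that of the EEF2 adenosines without ABA and 10.3% under ABA. Positions below the read cutoff are not listed and do not enter these means, so the depth of the opposite strand as a whole may be lower. Whether these reads are antisense RNA or EEF2 reads assigned to the other strand was not tested. Position 3977486 had G in 7 of 7 reads in each library, and its origin was not tested. At the other plus-strand positions 1 of 5441 reads was G without ABA, 0.0184% (0.000465 to 0.102), and 0 of 4198 under ABA, which allows a rate of up to 0.0715%. These positions had a median depth of 11 reads in each library, against 106 and 114 at the EEF2 adenosines, so the rates of the strands are not compared.

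Other transcripts were ranked by their likeness to EEF2. Positions of 1 strand were joined at gaps of at most 2000 nt into loci, and 378 loci other than EEF2 had at least 10000 base reads and a G read in each library. Their median rate was 0.0487% without ABA and 0.0813% under ABA, with a median ratio of 1.68. The EEF2 rate under ABA was reached by 11 of these loci, 2.91%, its rate without ABA by 36 and its ratio by 86. Loci were chosen by total reads and not by depth per position. Since mismatch rates were higher at deeper positions, this ranking is not matched for depth, and the part of depth in it was not tested. The closest in both rates, by the sum of absolute log2 differences over the 2 libraries, was chromosome 8 from 146015154 to 146017524 (minus), with 0.153% (0.107 to 0.212) and 0.361% (0.292 to 0.441). Next were chromosome 22 from 39708900 to 39716259 (minus), with 0.151% and 0.334%, and chromosome 17 from 37357497 to 37360974 (plus), with 0.132% and 0.331%. Genes at these loci were not named, as no annotation of the build was used here, and the other elongation factors were not located for the same reason.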

How the data were processed

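Per the submitters' processing notes, cutadapt, HISAT2 and the hg19 build were used, with no versions. For the base counter no name is given in the sources used here. The deposited counts are numbers of reads with each base at a listed A position, not normalised, with a single base read cutoff of 5 per the file headers. The lowest depth listed is 6. T-to-C counts of the minus strand were taken as A-to-G of the transcript.

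A rate is changed reads over A plus changed reads, with Clopper-Pearson intervals, and ratios have exact conditional binomial intervals, both at 95%. Main values use positions listed in both libraries. Positions with a share of 35% or more of the changed base in either library were left out. A count of 0 was given a limit of 3 counts.

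Members and lists were chosen with earlier results of these data known, and the pairing of both neighbours after the values were seen. Named were positions with at least 3 G reads in either library, at most 15 by total G reads. The planned list of 20 elongation genes was not run, for want of an hg19 annotation. The scripts were tested on simulated data. Scripts ran in Python 3.11.15 (scipy 1.17.1, pandas 2.3.3, numpy 2.4.6; plots in matplotlib 3.10.9).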

Additional observations from a re-analysis of the deposited data

How the results depend on the processing

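Of 60 alternatives run on the EEF2 rates, counts and blocks, 53 stayed within the interval of the reported value or within 1.5 times a count. With the 24 positions of at least 3 G reads left out, the A-to-G rate under ABA was 0.236% and the ratio 1.94, and both were outside the reported intervals because those positions hold the most G reads. A further alternative, chosen after seeing the data, left out the adenosines that have A or U before and neither after. The rate under ABA was then 0.281%, below its reported interval, and the ratio 2.19, within its interval. The count of positions with 3 or more G reads depended on that limit: at least 2 G reads gave 10 positions without ABA and 46 under ABA, and at least 5 gave 0 and 10. A gap of 30 nt gave 14 blocks and one of 100 nt gave 13, all higher under ABA. Blocks built from positions of at least 50 reads numbered 16, of which 15 were higher. No paired analysis was possible because each condition has 1 library. Depth limits single positions: at 100 reads a count of 0 allows a share of up to 3%.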
